A study of Mus musculus with 12 samples.

Results

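Collagen genes were compared between cells of the mouse liver sorted by the fluorescence of a Sox9EGFP transgene. The collagens were taken as every gene symbol of the form Col, number, a, number, which gave 44 of the 54227 symbols in the table: 11 that encode fibrillar chains (types I, II, III, V, XI, XXIV and XXVII), 9 that encode basement membrane and related chains (types IV, VII, XV and XVIII) and 24 of other types. All mice were of the C57Bl/6 strain, carried the Sox9EGFP transgene and were fasted for 16 h, and the labels give no age or sex. Their livers were digested to single cells and sorted into 4 EGFP populations, called neg (EGFP-negative), sub (below the low gate), low and high here, with 12000 cells per library and 3 libraries per population. The populations are gates on the brightness of a reporter, and a gate can hold several cell types. For short, neg and sub are called the dim populations and low and high the bright ones. The labels do not give these names.

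A collagen is a trimer of alpha chains wound into a triple helix, and each chain has its own gene. Fibrillar collagens pack into the fibrils that give tissue its tensile strength, type IV collagen forms the sheet of basement membranes under epithelium and along vessels, and the other types coat fibrils, form filaments or sit in the cell membrane. In liver, stellate cells and portal fibroblasts are the known sources of fibrillar collagen, endothelial and other cells make type IV collagen, and Sox9 marks the biliary epithelium. Less RNA of a collagen in a sorted population may come from fewer cells of a type that makes it or from less RNA per cell, and these cannot be told apart in bulk libraries.

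The libraries held between 8775387 and 15535588 recovered reads, and 1 read was worth between 0.691 and 1.22 normalised counts. Sox9 itself measured 0.691, 0 and 0 in neg, 6653, 4237 and 3707 in sub, 8838, 10313 and 17140.4 in low and 11794, 13969 and 13497 in high. It was thus lowest in neg, higher in every sub library and highest in the bright populations, while low and high overlapped. Sums of defining markers differed along the same gates. The summed normalised count of 10 endothelial markers ran from 100343 to 148843 in neg, 31323 to 38128 in sub, 756 to 2218 in low and 555 to 899 in high. For 10 stellate cell markers the sum was 9647 to 13756 in neg, 14546 to 17154 in sub, 635 to 1931 in low and 489 to 1652 in high, with Lrat, Colec11 and Hhip at 0 in every low and high library. Reln and Rgs5 carried most of what was left, with Reln at 466 ± 396 in low and 585 ± 420 in high (mean ± SD, n = 3), and Rgs5 at 845 ± 734 in low against 829 ± 415 in neg. The 10 portal fibroblast markers summed to 3502 to 5257 in neg, 3604 to 10285 in sub, 90.4 to 495 in low and 160 to 379 in high. In the other direction, 10 biliary markers summed to 198 to 412 in neg, 19770 to 35543 in sub, 66842 to 91119 in low and 62724 to 69221 in high. The 10 hepatocyte markers summed to 629 to 1094 in neg, 5912 to 7885 in sub, 13988 to 21694 in low and 18109 to 20949 in high. Alb and Ahsg carried most of that sum in high, at 11927 ± 1576 and 5268 ± 350 (SD, n = 3), while Apoa1 had its highest mean in neg, at 411 ± 203 against 53.5 ± 86.0 in high. Smooth muscle markers (5 genes) ran from 3488 to 9684 in neg and from 155 to 504 in high, and mesothelial markers (5 genes) from 251 to 1732 in neg and from 604 to 1348 in high. Kupffer cell and macrophage markers summed to at most 1288 and lymphocyte markers to at most 1786 in any library, with C1qa, Cd3e and Cd3g at 0 in every library. Within those lists Csf1r was at 0 in every neg library and at 519 to 1133 in the low and high libraries and was called higher in both against neg, and Il7r ran from 185 to 678 in neg and was at most 85.7 elsewhere. The part of these shifts in the collagen values was not tested.

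Collagen RNA was several times more abundant in the 2 dim populations, neg and sub, than in the 2 bright ones, low and high. The 44 genes summed to 71980 ± 9851 normalised counts in neg and 65777 ± 16609 in sub, against 15026 ± 3565 in low and 13180 ± 3073 in high (mean ± SD, n = 3 in each population). These sums were 0.676%, 0.590%, 0.133% and 0.119% of all values. The lowest sub library held 54910 and the highest low or high library 18912, so the groups did not overlap. Neg and sub did overlap, and so did low and high.

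The mixture of classes differed as well. Fibrillar genes gave 27.5% ± 1.1 of the collagen sum in neg and 30.3% ± 4.67 in sub, against 17.9% ± 2.66 in low and 21.8% ± 5.47 in high. Basement membrane genes gave 35.7% ± 5.04 in neg and 35.0% ± 0.636 in sub, and 72.5% ± 3.45 in low and 69.1% ± 5.38 in high. Their summed count was 25392 ± 824 in neg and 22971 ± 5427 in sub. In low and high it was lower, at 10940 ± 2910 and 9176 ± 2629. The remaining types made up 36.8% ± 4.01, 34.7% ± 5.0, 9.69% ± 3.66 and 9.09% ± 1.03 in the same order. Basement membrane genes thus held 63.0% or more of the collagen sum in every low and high library. In the neg and sub libraries they held at most 41.0%, as the stacked bars of the collagen sum show.

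**Figure D1:**
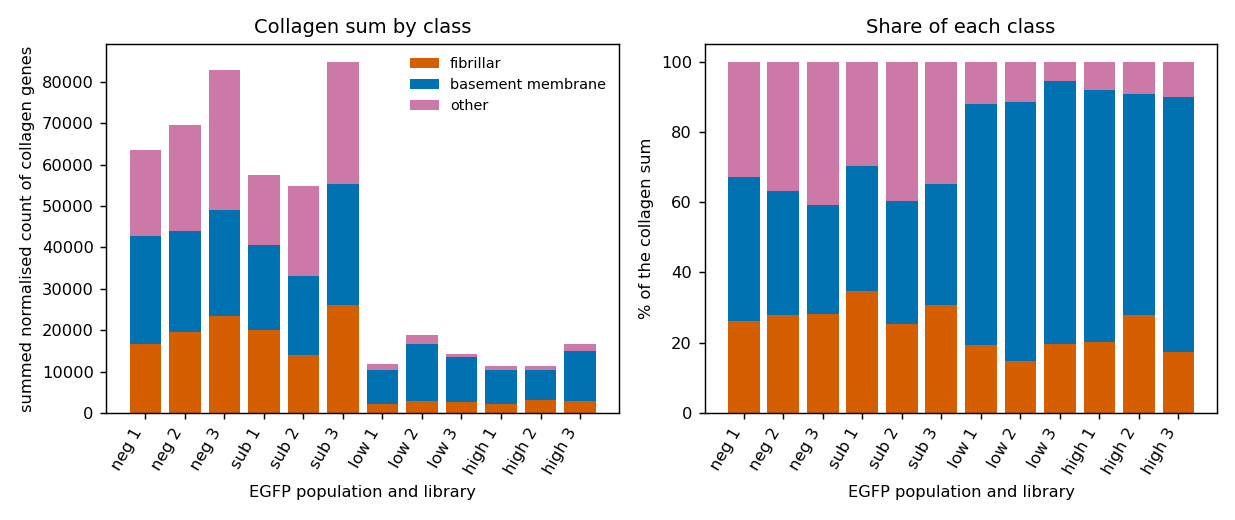
Left, summed normalised count of the collagen genes in each of the 12 libraries, stacked by class; right, the same as a percentage of each library's collagen sum. The neg and sub bars reach 54910 or more and the low and high bars 18912 or less, and the basement membrane share is 63.0% or more in every low and high library.

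Of the 44 genes, 8 were at 0 in all 12 libraries: the fibrillar Col11a1, and Col6a4, Col9a1, Col9a2, Col10a1, Col17a1, Col19a1 and Col25a1 of the other types. Col22a1 never exceeded 1 read in a library. The remaining 35 genes had a mean of at least 10 and entered the test, 10 fibrillar, 9 basement membrane and 16 other. Because a gene passes that filter when it is high in a single population, counts among the 35 describe these genes and not all collagens. A moderated F test (limma over all genes on log2 of the normalised count plus 1, Benjamini-Hochberg adjusted p under 0.05) found a difference among the 4 populations for 15 of the 35, or 42.9%, where 4.23% of all 16128 tested genes were called. By class these were 5 of 10 fibrillar, 4 of 9 basement membrane and 6 of 16 other genes. Adjusted p-values are those of limma where no other tool is given. Each library also carries a tag in its sample description that libraries of the same number share across the 4 populations, and the labels do not say what a tag stands for. Nor do they say whether the libraries of a population came from separate animals, so the p-values measure the spread between these libraries.

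**Figure D2:**
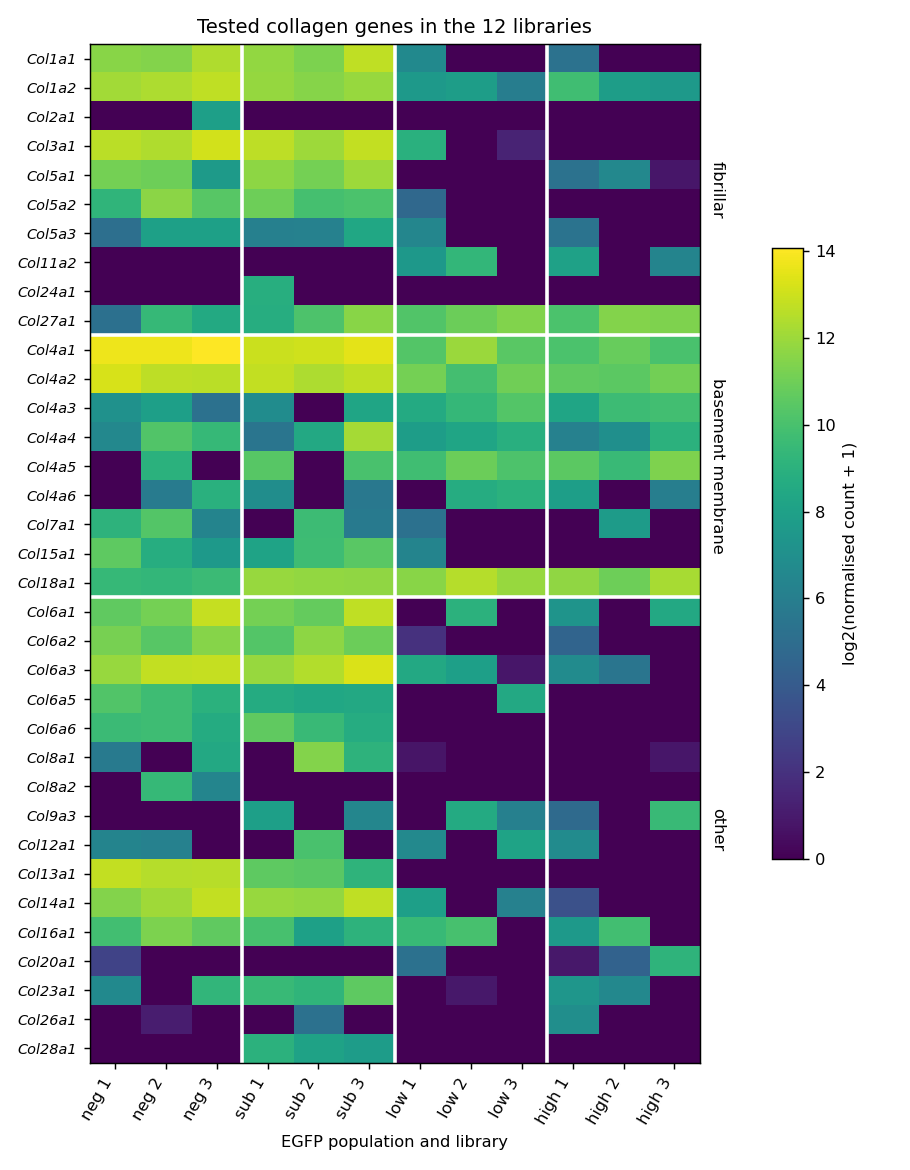
Normalised counts of the 35 tested collagen genes on a log2 scale after adding 1, with genes as rows grouped by class and the 12 libraries as columns. Most fibrillar and other genes are bright in neg and sub and dark in low and high, while Col18a1, Col27a1 and Col4a1 to Col4a5 keep colour in low and high.

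The stretches just before the start sites of 4 collagen genes are shown because their RNA moved in opposite directions: Col3a1 and Col13a1 were lowest in low and high, Col5a1 was at 0 in every low library, and Col18a1 was lowest in neg. The sequences are from RefSeq on GRCm38.p6, where 35 of the 44 genes matched a promoter, with 38 start sites in all. They are written 5′ to 3′ on the strand of the gene, in lower case, with 3 motifs searched on both strands in capitals. The CCAAT box reads ATTGG from the opposite strand. The GC box was searched as GGGCGG, which reads CCGCCC there. The TATA box was searched as TATAAA, or TTTATA from the opposite strand. No exon annotated in GENCODE overlaps the printed bases.
Col3a1, plus strand, chr1:45311388-45311537: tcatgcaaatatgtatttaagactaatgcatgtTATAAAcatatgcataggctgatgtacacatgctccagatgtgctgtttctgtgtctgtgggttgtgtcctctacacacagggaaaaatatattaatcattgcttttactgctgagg
Col5a1, plus strand, chr2:27886275-27886424: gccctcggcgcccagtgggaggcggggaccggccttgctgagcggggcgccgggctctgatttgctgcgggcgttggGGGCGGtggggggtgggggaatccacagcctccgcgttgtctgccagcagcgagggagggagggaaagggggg
Col13a1, minus strand, chr10:61979109-61979258: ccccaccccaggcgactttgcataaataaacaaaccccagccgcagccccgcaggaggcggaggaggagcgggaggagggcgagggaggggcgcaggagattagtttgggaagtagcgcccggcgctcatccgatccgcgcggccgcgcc
Col18a1, minus strand, upstream of the first of its 2 annotated start sites, up to the first annotated exon, chr10:77166549-77166680: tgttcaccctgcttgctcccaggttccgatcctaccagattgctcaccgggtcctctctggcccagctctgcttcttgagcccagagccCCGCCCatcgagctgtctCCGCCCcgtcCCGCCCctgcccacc

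Col3a1 carried the TATA box letters 117 bases before its start site and Col5a1 the GC box letters 73 bases before. None of the 3 motifs occurred in the Col13a1 stretch. Col18a1 carried the GC box letters on the opposite strand 61, 43 and 33 bases before its start. Over the 150 bases before each start, the GC box letters were present at 19 of the 38 collagen start sites, the CCAAT box at 8 and the TATA box at 4. Among 32851 promoters of the same length the shares were 28.6%, 24.5% and 7.57%. A match is a description of the letters and not a binding site.

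Among the fibrillar collagens, type I collagen, the main fibril of scar tissue, is built from the products of Col1a1 and Col1a2. Values are given in the order of libraries 1, 2 and 3. Col1a1 (chr11:94936224-94953042 on mm10) measured 3067, 2768 and 5410.5 in neg, 3585, 2554 and 6692 in sub, 103, 0 and 0 in low and 38.1, 0 and 0 in high. All 6 neg and sub libraries lay above all 6 low and high libraries, of which 4 held none, and the F test called the gene (adjusted p = 0.00319). Col1a2 (chr6:4504814-4541544) measured 4467, 5204 and 6864 in neg, 3613, 2918 and 3866 in sub, 190.0, 229 and 62.5 in low and 854, 227 and 195 in high. Unlike its partner it was above 0 in every library, with no overlap between the dim and the bright populations (adjusted p = 0.000744). Its highest value outside neg and sub was in high 1.

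Col3a1 (chr1:45311538-45349706), whose product forms type III collagen of reticular fibres, measured 6214, 5475 and 8708 in neg, 6526, 4121 and 6977 in sub, 485, 0 and 1.64 in low and 0 in every high library. All neg and sub libraries were far above the rest, no read was found in high, and low 1 alone among the low libraries held more than a few reads (adjusted p = 0.000584). Its exons share 141 bases with Gm47302 on the same strand, so reads there may have been split between them.

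Type V chains join type I fibrils and limit their width. Col5a1 (chr2:27886425-28039514) measured 2265, 1991 and 203 in neg, 3273, 2226 and 4129 in sub, 0 in every low library and 38.1, 94 and 0.817 in high. Neg 3 was far under the other neg libraries, and low held no read (adjusted p = 0.0044). Col5a2 (chr1:45374321-45503282), which lies tail to tail with Col3a1 across 24614 bases, measured 599.7, 3126 and 1342 in neg, 2029, 949 and 1094 in sub, 26, 0 and 0 in low and 0 in every high library. It was at 0 in 5 of the 6 low and high libraries (adjusted p = 0.00533). Col5a3 measured 34.5, 256 and 259 in neg, 70, 72.1 and 337 in sub, 88.3, 0 and 0 in low and 39.8, 0 and 0 in high, and low 1 exceeded the lowest neg and sub libraries, so the groups overlapped (adjusted p = 0.451).

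Col27a1 (chr4:63214004-63334991), a fibrillar collagen known from cartilage, had the opposite order. It measured 35.2, 686 and 367 in neg, 441, 1132 and 3020.3 in sub, 1223, 1921 and 2718 in low and 1067, 2854 and 2612 in high. Every low and high library lay above every neg library, but sub overlapped with both, and the F test did not call it (adjusted p = 0.193). Col11a2, a type XI chain also known from cartilage, measured 0 in every neg library, 0 in every sub library, 179, 645 and 0 in low and 264, 0 and 81.7 in high. It was read only in low and high, in 4 of their 6 libraries (adjusted p = 0.434). Col24a1 was read in 1 library, sub 1, at 458. Col2a1, the type II collagen of cartilage, was read in 1 library as well, neg 3, at 242.

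**Figure D3:**
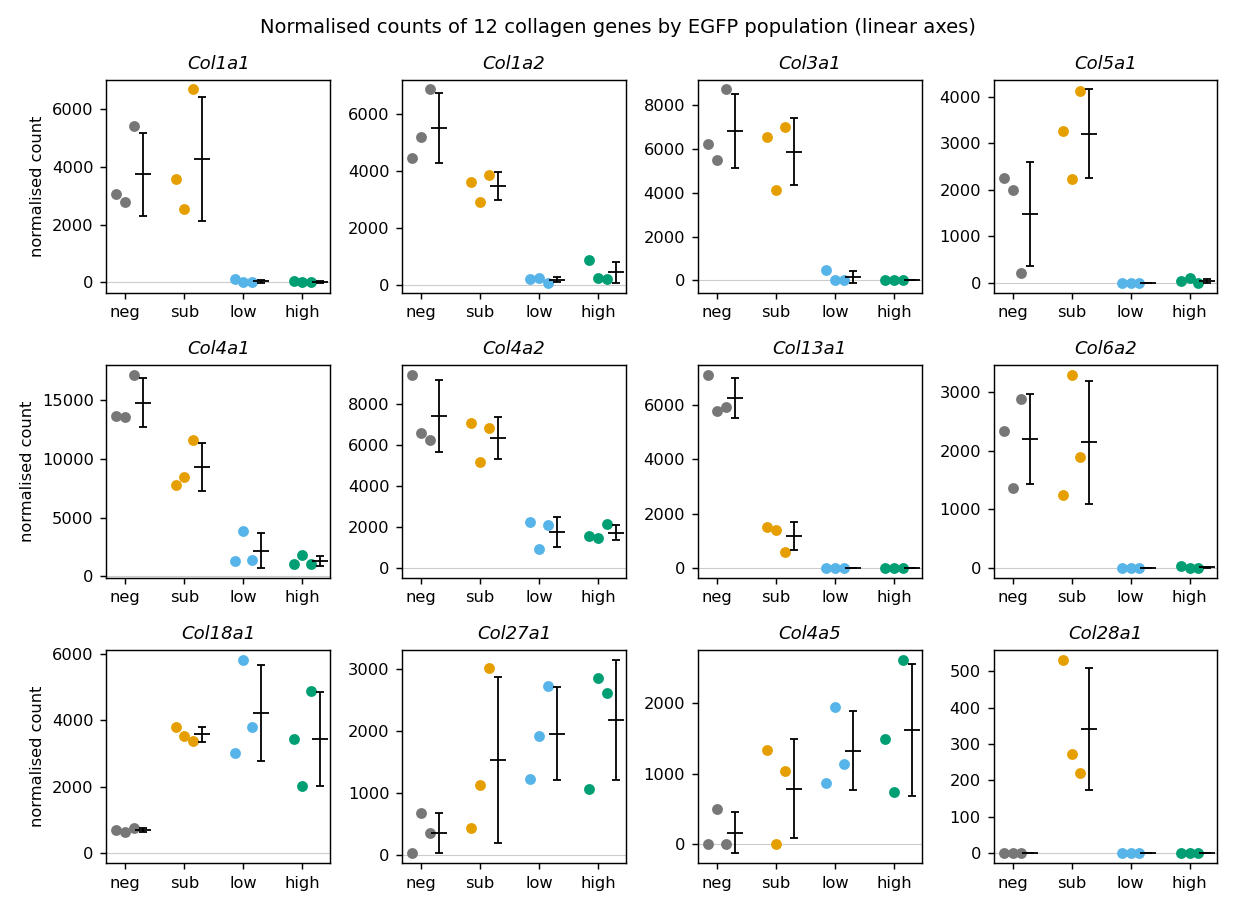
Normalised counts of 12 collagen genes (linear axes, a separate scale for each gene); coloured points are the 3 libraries of a population and the black bar is their mean ± SD. In the top and middle rows the neg and sub points lie above the low and high points; in the bottom row Col18a1, Col27a1 and Col4a5 have their lowest mean in neg and Col28a1 is above 0 only in sub.

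Of the basement membrane collagens, Col4a1 and Col4a2 encode the chains of the common type IV network, and they lie head to head on chromosome 8, where their first exons overlap by 22 bases on opposite strands. Col4a1 (chr8:11198423-11312826) measured 13654, 13533 and 17173 in neg, 7748, 8498 and 11596 in sub, 1275, 3889 and 1398 in low and 1075, 1799 and 1054 in high. All neg libraries lay above all sub libraries and these above all low libraries, low and high overlapped, and no library was near 0 (adjusted p = 1.93e-05). Col4a2 (chr8:11312805-11449287) measured 9426, 6592 and 6246 in neg, 7067, 5182 and 6799.7 in sub, 2251, 930.4 and 2085 in low and 1582, 1457 and 2132 in high. Its neg and sub libraries overlapped, as did low and high, and the first pair lay above the second (adjusted p = 0.00197). Without the variance trend of the model neither F test call was made, at adjusted p = 0.116 for Col4a1 and 0.373 for Col4a2. No other alternative ended either of these calls, edgeR and DESeq2 on recovered reads included.

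The other type IV chains did not follow this pair. Col4a3, Col4a4 and Col4a5 encode the chains that form the type IV network of the kidney glomerulus. Col4a3 measured 140.3, 242 and 36.7 in neg, 113, 0 and 312 in sub, 394, 652 and 1279 in low and 313, 807 and 893 in high, and the low and high libraries lay above the neg and sub libraries, though sub 3 and high 1 were nearly equal (adjusted p = 0.459). Its exons share 563 bases with C430014B12Rik on the opposite strand. Col4a4, which starts 71 bases from Col4a3 in the opposite direction, measured 94.7, 1214 and 678 in neg, 42.7, 362 and 4557 in sub, 229, 307 and 477 in low and 71.8, 127 and 533 in high. A single library, sub 3, held far more than the rest and the populations overlapped (adjusted p = 0.903). Col4a5 measured 0, 509 and 0 in neg, 1339.8, 0 and 1037 in sub, 877, 1952 and 1147 in low and 1497, 749.9 and 2618 in high. It was at 0 in 3 of the 6 neg and sub libraries and in none of low and high (adjusted p = 0.243). Col4a6, its neighbour at 1308 bases, measured 0, 57.5 and 482 in neg, 117, 0 and 48.9 in sub, 0, 421 and 513 in low and 232, 0 and 64.5 in high, with no order between populations (adjusted p = 0.977). None of these 4 genes passed the F test.

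Col18a1 (chr10:77052178-77166548) encodes the core protein of a basement membrane proteoglycan whose end fragment is endostatin. It measured 685, 641 and 769.8 in neg, 3805, 3529 and 3376 in sub, 3017, 5815 and 3797 in low and 3427, 2027 and 4859.5 in high. The neg libraries were the lowest and lay close together, while sub, low and high overlapped one another (adjusted p = 0.00633, and 0.351 without the variance trend). It was the only collagen called higher in low or high than in another population by the limma fit. With a replicate block Col27a1 was called higher as well, in low against neg (adjusted p = 0.0491) and in high against neg (adjusted p = 0.0416), and DESeq2 on recovered reads called 3 collagens higher in each. Col15a1, the related type XV chain, went the other way with 1501, 441 and 186 in neg, 280.0, 830.1 and 1413 in sub, 80.2, 0 and 0 in low and 0 in every high library. Only 1 of the 6 low and high libraries held a read, and the F test called it (adjusted p = 0.0361), a call lost in 8 of the 12 fits that each left out 1 library (adjusted p 0.0103 to 0.074). A replicate block and edgeR on recovered reads also ended that call. Col7a1, the anchoring fibril collagen, measured 555, 1240.1 and 79.2 in neg, 0, 808 and 51.9 in sub, 36.4, 0 and 0 in low and 0, 208 and 0 in high. Its values scattered widely within neg and sub (adjusted p = 0.51).

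Among the other collagens, the products of Col6a1, Col6a2 and Col6a3 assemble into the beaded filaments of type VI collagen. Col6a1 measured 1583, 2255 and 7152 in neg, 2243, 1741 and 6788 in sub, 0, 517 and 0 in low and 156, 0 and 359 in high. All neg and sub libraries lay above all low and high ones, and it missed the threshold of the F test (adjusted p = 0.0532). Col6a2 (chr10:76595762-76623630) measured 2339, 1372 and 2895 in neg, 1241, 3307 and 1897 in sub, 2.97, 0 and 0 in low and 22.5, 0 and 0 in high. Here low and high were close to 0 throughout (adjusted p = 0.00259). Col6a3 (chr1:90765923-90843971) measured 3789, 6943 and 7312 in neg, 3778, 5575 and 9877 in sub, 353, 244 and 0.822 in low and 109.9, 43.5 and 0 in high. The groups did not overlap (adjusted p = 0.00796), but the call was lost in 10 of the 12 fits leaving out 1 library (adjusted p 0.0174 to 0.127).

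Col6a5 and Col6a6 encode chains that can take the place of the Col6a3 product, and lie 27917 bases apart on chromosome 9. Col6a5 measured 1223, 832 and 511 in neg, 402, 329 and 364 in sub, 0, 0 and 354 in low and 0 in every high library, with low 3 alone among the bright libraries (adjusted p = 0.0585). Col6a6 (chr9:105687809-105828160) measured 766, 844 and 409 in neg, 1575, 737 and 413 in sub, 0 in every low library and 0 in every high library. It was present in each neg and sub library and in no other (adjusted p = 0.00631).

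Col13a1 (chr10:61838236-61979108), a collagen that spans the cell membrane, measured 7128, 5772 and 5924 in neg, 1521, 1405 and 576 in sub, 0 in every low library and 0 in every high library. Neg lay above sub without overlap, and no read was found in low or high (adjusted p = 0.0004). The limit that a count of 0 allows in a library, 3 reads, corresponds to between 2.23 and 3.03 normalised counts in low and high, and such limits cover counting error only because the labels mention no molecular identifiers. Col23a1, another membrane collagen, measured 99.5, 0 and 608 in neg, 708, 591 and 1532 in sub, 0, 0.85 and 0 in low and 165, 94 and 0 in high. Every sub library was above every low and high library, and neg overlapped with both (adjusted p = 0.223).

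Col14a1 (chr15:55307750-55520803), a collagen that coats fibrils, measured 2850.0, 4319 and 6893 in neg, 3758, 3562 and 6734 in sub, 246, 0 and 72.3 in low and 10.4, 0 and 0 in high. Sub lay within the range of neg, and the values of low and high were all lower, with 3 of them at 0 (adjusted p = 0.00181). Col16a1, of the same family, measured 889, 2507 and 1610.0 in neg, 1018, 253 and 552 in sub, 717, 1008 and 0 in low and 191, 889 and 0 in high. Unlike Col14a1 it reached 1008 in low 2 and 889 in high 2, within the range of neg and sub (adjusted p = 0.615). Col12a1, again of that family, measured 80.8, 72.2 and 0 in neg, 0, 1062 and 0 in sub, 96.5, 0 and 284 in low and 109.9, 0 and 0 in high, with 6 of 12 libraries at 0 and no order by gate (adjusted p = 0.92).

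Col28a1 (chr6:7997808-8192617), known from the sheaths of peripheral nerves, was read in every sub library, with 531, 272 and 219 in sub. It was at 0 in the 9 libraries of neg, low and high (adjusted p = 0.0185). Tests on recovered reads did not call it, with an adjusted p of 0.183 in edgeR and 0.0806 in DESeq2.

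A further 4 genes were uneven within populations. Col8a1, a short network collagen, measured 53.9, 0 and 360.2 in neg, 0, 2858 and 548 in sub, 0.742, 0 and 0 in low and 0, 0 and 0.817 in high, and sub 2 held most of its signal. Its partner Col8a2 was read in neg 2 and neg 3 only, at 697 and 84.0. Col9a3, a cartilage collagen that shares 234 exon bases with Tcfl5 on the opposite strand, measured 0 in every neg library, 245, 0 and 86.8 in sub, 0, 382 and 69.9 in low and 27.7, 0 and 751 in high. Col20a1 measured 6.22, 0 and 0 in neg, 0 in every sub library, 36.4, 0 and 0 in low and 0.865, 20.2 and 574 in high, with high 3 alone above 100. None of them passed the F test, and Col26a1 stayed under 100 on average in each population.

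Sub against neg asks what separates the dimmest EGFP cells from EGFP-negative cells. Few collagens were called: 2 of 35 genes, both higher in sub, and none lower, where 1.19% of all genes were called, 1.04% higher and 0.149% lower. Col18a1 was 5.11-fold higher in sub (log2 fold change 2.35 ± 0.48 SE, limma adjusted p = 0.015). Col28a1 was at least 118-fold higher against the limit of 3 reads in neg (adjusted p = 0.0352). Both calls held in all 12 fits that left out 1 library. A fit of neg and sub alone made neither call, at adjusted p = 0.241 for Col18a1 and 0.652 for Col28a1. Without the variance trend Col18a1 was not called either (adjusted p = 0.428), nor was Col28a1 in edgeR on recovered reads or with a replicate block (adjusted p = 0.45 and 0.0631). On the log2 scale the difference was 0.14 ± 2.14 (SE) for Col1a1, -0.66 ± 0.84 for Col1a2 and -0.22 ± 2.06 for Col3a1. The fit estimates a single spread for each gene over all populations. For Col1a1 and Col3a1 that spread takes in low libraries at 0 beside higher values. These errors are therefore not the scatter of neg and sub alone. With errors of that size this fit could not detect a change of a few fold in Col1a1 or Col3a1. Col13a1 was 5.38-fold lower in sub without overlap, and Col4a1 1.59-fold lower, and neither passed the test (adjusted p = 0.715 and 0.665). The median log2 fold change of the 35 genes was -0.04, against 0 for all tested genes. Placing members at 0 in a whole population at the bound set by 3 reads left this median at -0.04.

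Low against sub compares the neighbouring gates on either side of the division into dim and bright populations. Of the 35 genes 10 were called lower and none higher, where 0.744% of all genes were called, 0.614% lower and 0.13% higher. These were the fibrillar Col1a1, Col1a2, Col3a1 and Col5a1, the basement membrane Col4a1 and Col4a2, and Col6a2, Col6a6, Col13a1 and Col28a1. The median log2 fold change of the 35 was -3.39, or -4.61 with members at 0 in a population placed at the bound set by 3 reads, against 0 over all genes. Col4a1 was 4.24-fold lower in low (-2.26 ± 0.41 SE on the log2 scale, adjusted p = 0.0132) and Col4a2 3.62-fold lower (-1.94 ± 0.42, adjusted p = 0.0382). Col1a2 was 21.6-fold lower (-4.61 ± 0.84, adjusted p = 0.013). Col5a1, at 0 in low, was at least 1329.7-fold lower (adjusted p = 0.0114), and Col13a1 at least 484-fold lower (adjusted p = 0.0288). Col1a1 was 124-fold lower, with all of the low signal from low 1 (adjusted p = 0.0397). For Col3a1 the ratio was 36.2, with nearly all of the low signal from low 1 (adjusted p = 0.0472).

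Most of these calls lay close to the threshold. Without sub 2 the count fell from 10 to 2, and without sub 1, sub 3 or low 3 to 6. A fit of low and sub alone called none of the 10. The Col13a1 and Col28a1 calls held in all 12 fits that left out 1 library, but that fit gave adjusted p = 0.266 and 0.41, and Col28a1 was also not called with a pseudocount of 5, with a replicate block or in edgeR (adjusted p = 0.0569, 0.0816 and 0.465). Among the fits that left out 1 library, Col1a2, Col5a1, Col6a2 and Col6a6 lost theirs in the fit without sub 2, at adjusted p = 0.0546, 0.0515, 0.0707 and 0.0664. Col4a1 lost it in 6 of the 12 fits (adjusted p 0.0106 to 0.109), Col4a2 in 9 (0.0361 to 0.111), Col1a1 in 10 (0.0155 to 0.154) and Col3a1 in 11 (0.00473 to 0.158). Leaving out the variance trend also ended the calls of Col4a1, Col4a2, Col1a2 and Col3a1 (adjusted p = 0.442, 0.516, 0.063 and 0.0532). A replicate block ended those of Col3a1 and Col6a6 (adjusted p = 0.0579 and 0.078). A pseudocount of 0.5 ended those of Col1a1, Col3a1 and Col6a6 (adjusted p = 0.0577, 0.0649 and 0.0518). Testing without the filter on low values ended those of Col1a1, Col3a1 and Col4a2 (adjusted p = 0.0602, 0.0688 and 0.0603), and edgeR that of Col4a2 (adjusted p = 0.0831).

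**Figure D4:**
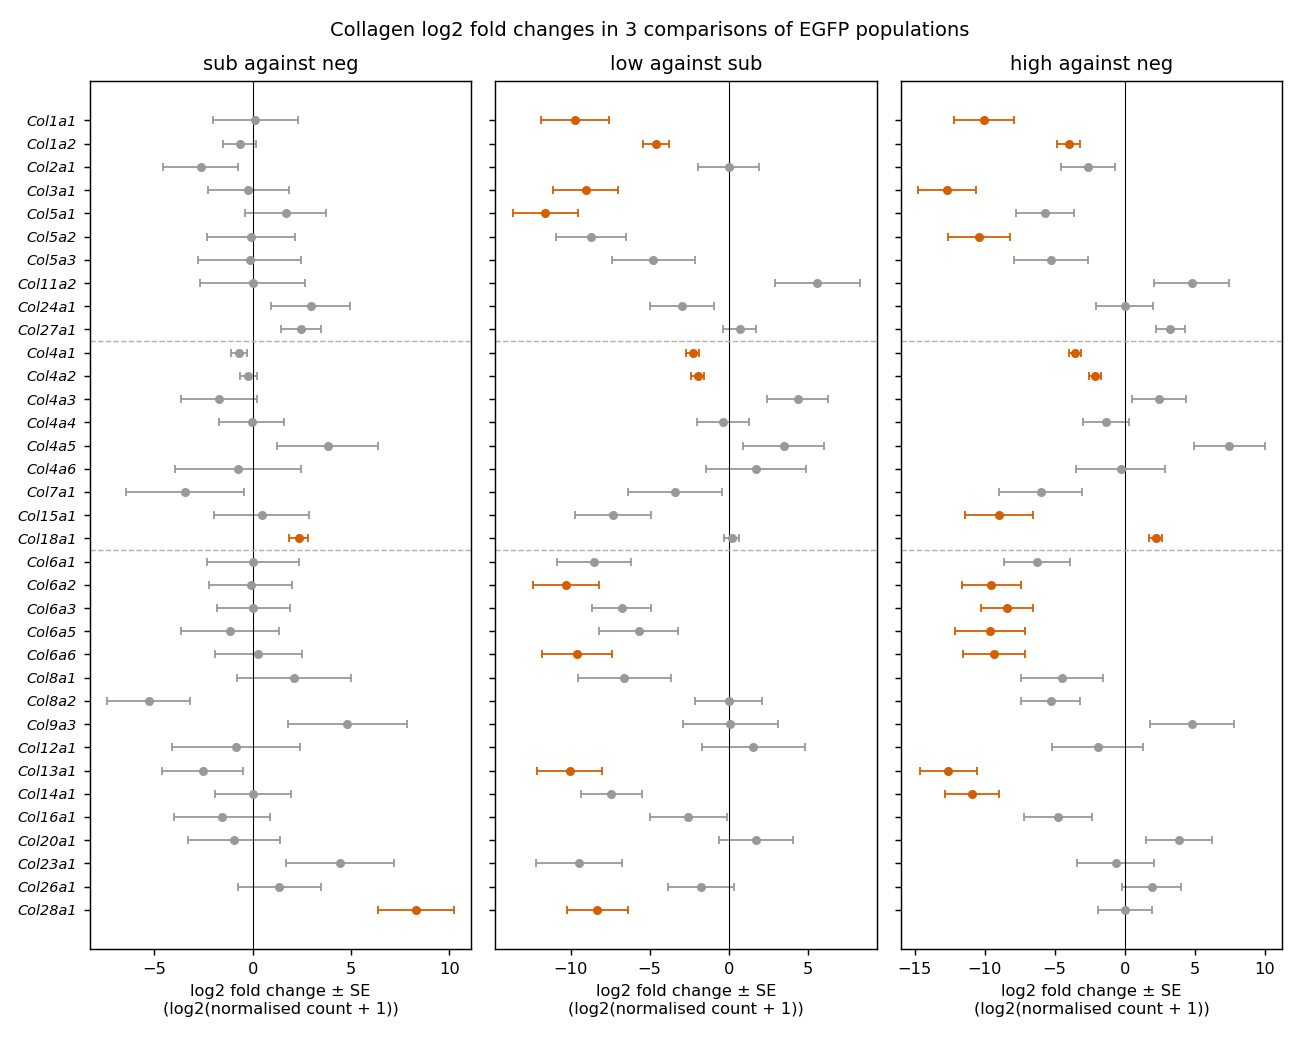
Log2 fold changes with standard errors of the 35 tested collagen genes in 3 comparisons, on the log2 scale of the normalised count plus 1; orange marks a limma adjusted p under 0.05 and dashed lines separate fibrillar, basement membrane and other genes. Sub against neg has 2 orange points, both to the right of 0, low against sub has 10, all to the left, and high against neg has 14, of which only Col18a1 is to the right.

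Low against neg compares the first of the bright populations with EGFP-negative cells. Of the 35 genes 14 were called, 13 lower and 1 higher, where 4.69% of all genes were called, 2.15% lower and 2.55% higher. The median log2 fold change was -4.49 (-4.90 with members at their bound), against 0 over all genes. Col4a1 was 6.76-fold lower in low (-2.95 ± 0.41 SE, adjusted p = 0.000151), Col1a2 34.3-fold lower (-5.27 ± 0.84, adjusted p = 0.000611) and Col6a2, with reads in low 1 alone of the low libraries, was lower (adjusted p = 0.00619). Col13a1 was at least 2599.7-fold lower (adjusted p = 0.000787). The gene called higher was Col18a1, 6.03-fold (2.54 ± 0.48, adjusted p = 0.00379). Those 5 calls and the calls of Col4a2, Col5a1 and Col6a6 held in all 12 fits that left out 1 library. Without the variance trend 3 of these 8 were not called, with adjusted p = 0.135 for Col4a1, 0.285 for Col4a2 and 0.187 for Col18a1. A fit of low and neg alone kept 4 of them, Col1a2, Col6a2, Col13a1 and Col18a1, and gave adjusted p = 0.0728 for Col4a1, 0.108 for Col4a2, 0.0768 for Col5a1 and 0.0737 for Col6a6. The count was 8 without neg 2 and 9 without neg 3. Col5a2 lost its call without neg 2 alone (adjusted p = 0.0507). Col1a1 and Col3a1 lost theirs in 5 of the 12 fits each, Col14a1 in 10, Col6a1 in 11 and Col6a3 in all 12. Col6a1 was also not called in edgeR or DESeq2 on recovered reads.

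High against neg shares the neg libraries with the comparison of low and neg. In it 14 genes were called, 13 lower and 1 higher, where 4.69% of all genes were called, 2.25% lower and 2.44% higher. The median was -4.01 (-4.47 with members at their bound), against 0.13 over all genes. Col4a1 was 11.3-fold lower in high (-3.53 ± 0.41 SE, adjusted p = 1.73e-05) and Col14a1, with reads in high 1 alone of the high libraries, was lower (adjusted p = 0.00169). Col3a1 was at least 2525-fold lower (adjusted p = 0.000713) and Col13a1 at least 2330.3-fold lower (adjusted p = 0.000744). Col18a1 was 4.92-fold higher (2.21 ± 0.48, adjusted p = 0.0101). These 5 calls and those of Col4a2, Col1a2, Col5a2, Col6a2 and Col6a6 held in all 12 fits that left out 1 library, while Col1a1, Col6a3, Col6a5 and Col15a1 each lost theirs in 3 or more. Without the variance trend Col4a1, Col4a2, Col18a1 and Col1a2 were not called (adjusted p = 0.0601, 0.285, 0.251 and 0.0529). In a fit of high and neg alone 7 of the 14 calls were kept, and Col18a1, Col1a2, Col6a2 and Col6a6 were lost (adjusted p = 0.0624, 0.0542, 0.0548 and 0.0502). Col27a1 was 6.00-fold higher in high and Col4a5 9.56-fold higher, in all 3 high libraries over every neg library, and neither passed the test (adjusted p = 0.0842 and 0.11).

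High against sub shares its libraries with the comparisons above. In it 11 genes were called lower and none higher, where 0.986% of all genes were called, 0.868% lower and 0.118% higher. They were Col1a1, Col3a1, Col5a2, Col4a1, Col4a2, Col6a2, Col6a3, Col6a6, Col13a1, Col14a1 and Col28a1. The median was -3.24 (-3.35 with members at their bound), against 0.20 over all genes. Col4a1 was 7.09-fold lower (-2.85 ± 0.41 SE, adjusted p = 0.00137), Col3a1 at least 2182-fold lower (adjusted p = 0.00386) and Col13a1 at least 433-fold lower (adjusted p = 0.0234). These and Col28a1 were the 4 calls that held in all 12 fits leaving out 1 library. A fit of high and sub alone left 1 call, that of Col3a1, with adjusted p = 0.0917 for Col4a1, 0.156 for Col13a1 and 0.289 for Col28a1. Col4a1 was not called without the variance trend (adjusted p = 0.256), nor Col28a1 with a pseudocount of 5, a replicate block or edgeR (adjusted p = 0.0519, 0.0704 and 0.47). A replicate block also ended the calls of Col6a2 and Col6a6, and leaving out the variance trend those of Col4a2 and Col6a3. The count fell to 4 without sub 2 and to 6 without sub 3.

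Between high and low no collagen was called, as was no gene at all (0% of 16128). No collagen reached an unadjusted p under 0.05 in limma either, against 684 of all genes. On recovered reads edgeR called 2 collagens (34 of all genes) and DESeq2 6, 2 higher and 4 lower in high (646 of all genes). The 2 in edgeR were Col3a1, lower in high (adjusted p = 0.000863), and Col5a1, higher (adjusted p = 0.0104). Of the low libraries, 1 carried nearly all of the Col3a1 signal, at 485, and the highest high library held 94.0 for Col5a1. The log2 fold changes of abundant members were -0.33 ± 0.48 for Col18a1, 0.11 ± 1.04 for Col27a1, 0.06 ± 0.42 for Col4a2 and -0.59 ± 0.41 for Col4a1 (± SE). A p that misses the threshold does not show that the 2 populations have the same collagens.

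Levels can be compared between genes only per length. Per kilobase of exon (all annotated exons of a gene merged), Col4a1 was the highest collagen in neg, at 1981 ± 277 normalised counts, and in sub, at 1243 ± 273. In low and high Col18a1 led instead, at 599.6 ± 206 and 489.7 ± 202. Using the longest transcript in place of merged exons kept these leaders. Col13a1 was next in neg under both lengths, at 1363 ± 161 with merged exons.

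The make-up of type IV RNA per kilobase shifted with the gates. Col4a1 and Col4a2 together gave 96.1% ± 3.31 of it in neg and 89.7% ± 8.84 in sub, but 62.7% ± 9.04 in low and 57.5% ± 11.5 in high. Col4a3, Col4a4 and Col4a5 together gave 3.26% ± 3.37, 10.1% ± 8.77, 33.4% ± 5.43 and 40.8% ± 11.2. The highest sub library was at 19.2% and the lowest low library at 27.3%, so the dim and bright populations did not overlap. Within type IV, the falls of Col4a1 and Col4a2 were called and no rise of another chain was.

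Col18a1 alone gave 1.02% ± 0.0818 of collagen RNA per kilobase in neg and 6.21% ± 1.62 in sub, but 30.3% ± 2.28 in low and 27.8% ± 6.08 in high. Type I and III genes gave 17.2% ± 2.37 and 17.7% ± 2.46 in neg and sub, and 2.07% ± 2.71 and 2.32% ± 2.31 in low and high. Type VI genes went from 17.6% ± 5.35 and 19.8% ± 4.3 to 3.16% ± 1.93 and 2.33% ± 1.8. The ratio of Col1a1 to Col1a2 is not given a direction, since in neg it was 1.27 with merged exons and 0.603 with the longest transcripts.

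**Figure D5:**
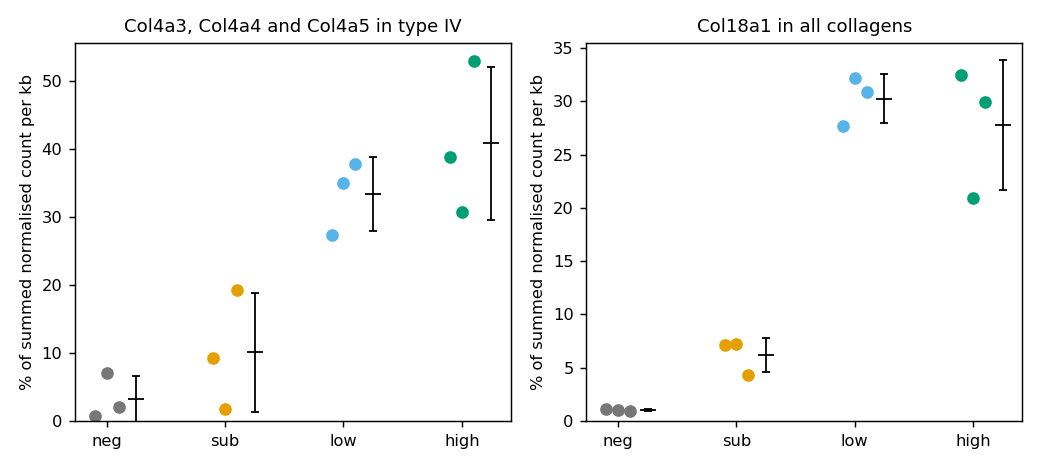
Left, share of type IV collagen RNA per kilobase that came from Col4a3, Col4a4 and Col4a5; right, share of all collagen RNA per kilobase that came from Col18a1. Points are the 3 libraries of a population and the black bar is the mean ± SD; all low and high libraries lie above all neg and sub libraries in both panels.

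Genes that build, bind and sense collagen were taken from 3 lists. Of 31 tested genes for collagen synthesis and processing (prolyl and lysyl hydroxylases, chaperones, secretion and cleavage enzymes, cross-linking oxidases), 2 passed the F test, as did 4.23% of all tested genes. Adamts2, which cleaves the leading propeptide from fibrillar collagens, measured 2476, 1601 and 2266 in neg, 1913, 1609 and 1029 in sub, 285, 0 and 0 in low and 0 in every high library (adjusted p = 0.00825). All its neg and sub libraries lay above all low and high libraries. Mia2, whose product helps load large cargo for secretion, measured 767, 336 and 1775 in neg, 2008, 781 and 1724 in sub, 5450.4, 5239.8 and 2309 in low and 5479, 4426 and 4449.5 in high (adjusted p = 0.033) and was higher in the bright populations, a call lost in 11 of the 12 fits leaving out 1 library (adjusted p 0.0294 to 0.171). In low against neg 1 gene of the list was called higher and 1 lower, and in high against neg 1 higher and 2 lower. Over all genes 2.55% were called higher and 2.15% lower in the first comparison, and 2.44% and 2.25% in the second. In low against neg, leaving out 1 library ended the Adamts2 call in 11 of the 12 fits (adjusted p 0.00235 to 0.129). The Mia2 call there was lost in 10 (0.019 to 0.167). In high against neg Mia2 lost its call in 5. The summed level of the list was 14904 to 19808 in neg and 16314 to 20411 in low, ranges that overlap.

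Of 14 matrix proteins that bind collagen, 9 passed the F test (4.23% of all tested genes did): Bgn, Dcn, Fmod, Fn1, Hspg2, Nid1, Prelp, Sparc and Tnxb. Fn1, fibronectin, measured 3931, 3754 and 1871 in neg, 12638, 10695 and 14597 in sub, 17422, 12659.7 and 12172 in low and 21161, 19213 and 18491 in high (adjusted p = 3.4e-06). Hspg2, the basement membrane proteoglycan perlecan, measured 24899.6, 26419.5 and 20659 in neg, 7000.4, 3675 and 9696 in sub, 6334, 5191 and 7399 in low and 7089.6, 6068 and 6986 in high (adjusted p = 0.000205). Fn1 was thus lowest in neg and Hspg2 highest there, each without overlap with the other populations. Without the variance trend neither F test call was made, at adjusted p = 0.342 for Fn1 and 0.555 for Hspg2. No other alternative ended these F test calls. Tnxb, a tenascin of fibrous matrix, measured 7682, 4191 and 6291 in neg, 6193, 7358 and 10267 in sub, 328, 202 and 207 in low and 133, 24.3 and 0 in high (adjusted p = 0.0004). Prelp, a small leucine-rich proteoglycan, measured 3481, 2357 and 6943 in neg, 4501, 9237 and 9616 in sub, 987, 15.3 and 0.822 in low and 706, 256 and 346 in high (adjusted p = 0.00896, lost in 11 of the 12 fits leaving out 1 library, 0.00101 to 0.141). Both had their high values in neg and sub, as most fibrillar genes did. In high against neg, 6 of the 14 were called lower and 1, Fn1, higher, where 2.25% of all genes were called lower and 2.44% higher.

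Of 10 collagen receptors, 3 passed the F test, against 4.23% of all tested genes. Itga1, the integrin chain that binds type IV and type I collagen, measured 5757, 3854 and 5257 in neg, 2797, 1934 and 4267 in sub, 127, 184 and 549.8 in low and 91.7, 130.4 and 637 in high (adjusted p = 0.00362). Its neg and sub libraries lay above all low and high ones, and without the variance trend it was not called (adjusted p = 0.0551). Itga2, the chain of another collagen-binding integrin, was read in low alone, with 699.9, 98.6 and 554 in low (adjusted p = 0.0199), and edgeR on recovered reads did not call it (adjusted p = 0.101). Itga11, an integrin chain of fibroblasts, measured 49.1, 0 and 0 in neg, 671, 228 and 869 in sub, 0 in every low library and 0 in every high library (adjusted p = 0.04996, just under the threshold of 0.05), a call lost in 9 of the 12 fits leaving out 1 library (0.00537 to 0.0804). In high against neg 1 receptor gene was called higher and 1 lower, where 2.44% and 2.25% of all genes were.

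Values of 0 beside high values were common. Among the 35 tested collagens 20, or 57.1%, had a population with 1 library at 0 and another at 100 or more, and among all tested genes the share was 73.5%. A 0 in a single library was therefore read with its partners. Exons shared with other annotated genes limit the values of Col3a1, Col4a3 and Col9a3. Other overlaps occur at Col4a1, Col4a2, Col5a1, Col6a4, Col6a6, Col7a1, Col10a1, Col15a1, Col20a1 and Col22a1. The use of strand in counting is not given in the sources used here, so reads from these stretches cannot be assigned with certainty.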

How the data were processed

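RNA of sorted cells was measured in 12 libraries, 3 for each of 4 EGFP populations. The authors deposited 1 table of normalised counts, used here as a signal per gene and library. The submitters' processing notes name mm10, Salmon and DESeq2 1.26.0, without saying what each did. All values above 0 were whole multiples (within 0.001) of the smallest value of their column, 100% in each, so reads were recovered by dividing by it. In sub 3 and high 2 that smallest value is close to 1 (0.997 and 1.01), so the recovery is less certain there, and edgeR and DESeq2 rest on it. Population and replicate number come from the sample titles.

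Genes whose normalised count averaged 10 or more (16128, holding 99.9% of the values) were tested on log2(normalised count + 1) with limma 3.58.1 in R 4.3.3, with a variance trend and population as the only term. The 6 pairwise contrasts and the F test were two-sided, with Benjamini-Hochberg adjustment over all genes at 0.05. Fold changes on this scale can understate changes of genes near 0. Where a population mixes 0s with higher values, they can instead exceed the ratio of means. For Adamts2 in low against neg the log2 fold change was -8.30, with means of 2114 in neg and 95.0 in low. Ratios are of population means, and a population at 0 in every library gives a bound computed from 3 reads. The script was also run on simulated counts with 200 genes changed in low. In each run they were drawn with the same dispersion for every gene. They were not set to copy the 0s beside high values in these data. The calls reported here do not rest on that simulation. Lengths and positions are from GENCODE on GRCm38.

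Genes were named by a rule: collagens with a mean of at least 100 in 1 or more populations are given in every library, the rest by count, and at most 4 genes per pathway list that pass the F test. The collagens and all lists were chosen with earlier results of these data known. Alternatives were other pseudocounts (0.5 and 5), filters and scalings, no variance trend, a replicate block, fits of the 2 populations at issue alone, leaving out each library, and edgeR 4.0.16 and DESeq2 1.42.0 on recovered reads.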

Additional observations from a re-analysis of the deposited data

How the results depend on the processing

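Directions held throughout: no collagen call changed sign in any alternative. The number of collagens called by the F test (15) stayed between 12 and 17. In sub against neg the count of 2 became 1 with a mean of at least 100, without the variance trend and in edgeR. It became 0 when the fit held only the 2 populations compared, and 4 in DESeq2, 3 higher and 1 lower in sub. Without neg 1 it was 3, with 2 higher and 1 lower. With only the 2 populations in the fit, the count became 0 in low against sub (from 10), 4 in low against neg (from 14), 7 in high against neg (from 14) and 1 in high against sub (from 11). Without the variance trend it became 8 in low against neg and 9 in high against neg. In high against low it went from 0 to 2 in edgeR and 6 in DESeq2. Leaving out 1 library gave 13 to 16 in the F test, 2 to 3 in sub against neg, 2 to 11 in low against sub, 8 to 13 in low against neg, 10 to 14 in high against neg, 4 to 14 in high against sub and 0 in high against low.

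Over all genes, DESeq2 called 1698 in sub against neg (192 in limma), 1593 in low against sub (120), 646 in high against low (0), 2352 in low against neg (757), 2257 in high against neg (757) and 1485 in high against sub (159). With only the 2 populations in the fit the limma counts became 0, 0, 203, 341 and 8, in the same order without high against low. The cause was not tested.

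Libraries of the same replicate number share a tag in the labels, whose meaning is not given, so they may have a common source. Their deviations from the population means correlated at r = -0.0161 to 0.0266 over 18 pairs (mean 0.00881). Pairs of different numbers gave r = -0.0447 to 0.0234 over 36 pairs (mean -0.00439). Of the 12 libraries, 8 matched their own number best. With a replicate block the counts were 14 in the F test, 1 in sub against neg, 7 in low against sub, 0 in high against low, 15 in low against neg, 15 in high against neg and 8 in high against sub. Libraries of 8775387 to 15535588 reads and 3 libraries per population limit what can be seen among collagens with 0 in some libraries.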
